A study of Paralichthys olivaceus with 6 samples.

Results

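Amino acid and transmitter transporters were examined in olive flounder (Paralichthys olivaceus) hindbrain, as the gene ids of 10 solute carrier families (SLC1, SLC3, SLC6, SLC7, SLC17, SLC18, SLC32, SLC36, SLC38 and SLC43). Members were the ids of the count tables that begin with a family name followed by "a" and a number, with the serotonin transporter id slc6a4 left out. This gave 38 of 24395 rows, of which 35 passed the filter for testing. None of the 38 ids belonged to SLC32 or SLC36. One of them, slc7a6os, is a gene named for lying opposite slc7a6 and encodes no transporter, so that 37 ids name transporters. The study compared fish selected as bold with fish selected as shy, with 3 RNA-seq libraries in each group. The fish weighed 101.06 ± 6.39 g, were kept at 18 °C in aerated tanks and fed pellets, and received no drug or genetic change in the labels. In all 6 libraries the personality named in the title contradicts the one in the sample characteristics. The groups are therefore called titled bold and titled shy, and every direction turns round if the characteristics are right. Equal RNA amounts of 6 fish were used according to the labels, but whether a library is a pool or a single fish is not said, so a p-value here reflects the spread between these 6 libraries, which may be technical.

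Transporters of these families end or prepare chemical signalling. Neurons load transmitters into vesicles with carriers of the SLC17, SLC18 and SLC32 families, driven by a proton gradient. After release, SLC1 and SLC6 carriers in neurons and glia take glutamate, GABA, glycine and monoamines back up with sodium. SLC38 carriers move glutamine between astroglia and neurons, which rebuild glutamate and GABA from it. SLC7 light chains, joined to an SLC3 heavy chain at the cell surface, exchange amino acids such as leucine, cystine and D-serine. Roles given below are known from mammals unless another group is named.

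Library totals lay between 18081694 and 22805563 counts, and 3 counts corresponded to between 0.132 and 0.174 CPM (read counts scaled to TMM-corrected library size). A CPM mean is given ± SD (n = 3 in a group, n = 6 where no group is named), and a log2 fold ± SE. The library titled bold 2 stood apart, with a mean Pearson correlation of 0.961 with the other libraries on log2 CPM over all tested genes, where the others had between 0.971 and 0.973. It held the lowest value of 29.3% of all tested genes and of 12 of the 35 tested members (34.3%). The same library also held the highest value of 5022 of the 19755 tested genes, more than any other library, and of 8 of the 35 members. The hindbrain label was set against 12 rows of position genes fixed for it. Of these rows 3 had no read, and only egr2, mafba and mafbb passed the filter. Markers of cerebellar granule cells, 9 rows of which 7 were tested and 5 reached a mean of 10 CPM, summed to between 539.4 and 642.3 CPM. Among them gabra6b had between 340.8 and 431.5 CPM. Counts were not divided by transcript length, so CPM values of different genes are read counts side by side and not an order of transcript levels.

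Mean CPM reached 1 in 34 of the 38 members and 10 in 25 of them. Summed over all members, libraries titled bold held 2260, 1813 and 1973 CPM and libraries titled shy 2208, 2183 and 2351 CPM. The glutamate transporter id slc1a2 drew the most reads, 49490 in the 6 libraries together. The neutral amino acid carrier ids slc6a17 and slc6a15 drew 28536 and 26405 reads. At the other end, slc6a5, slc6a14 and slc1a7 had 26, 6 and 5 reads in all libraries together and were not tested.

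**Figure D1:**
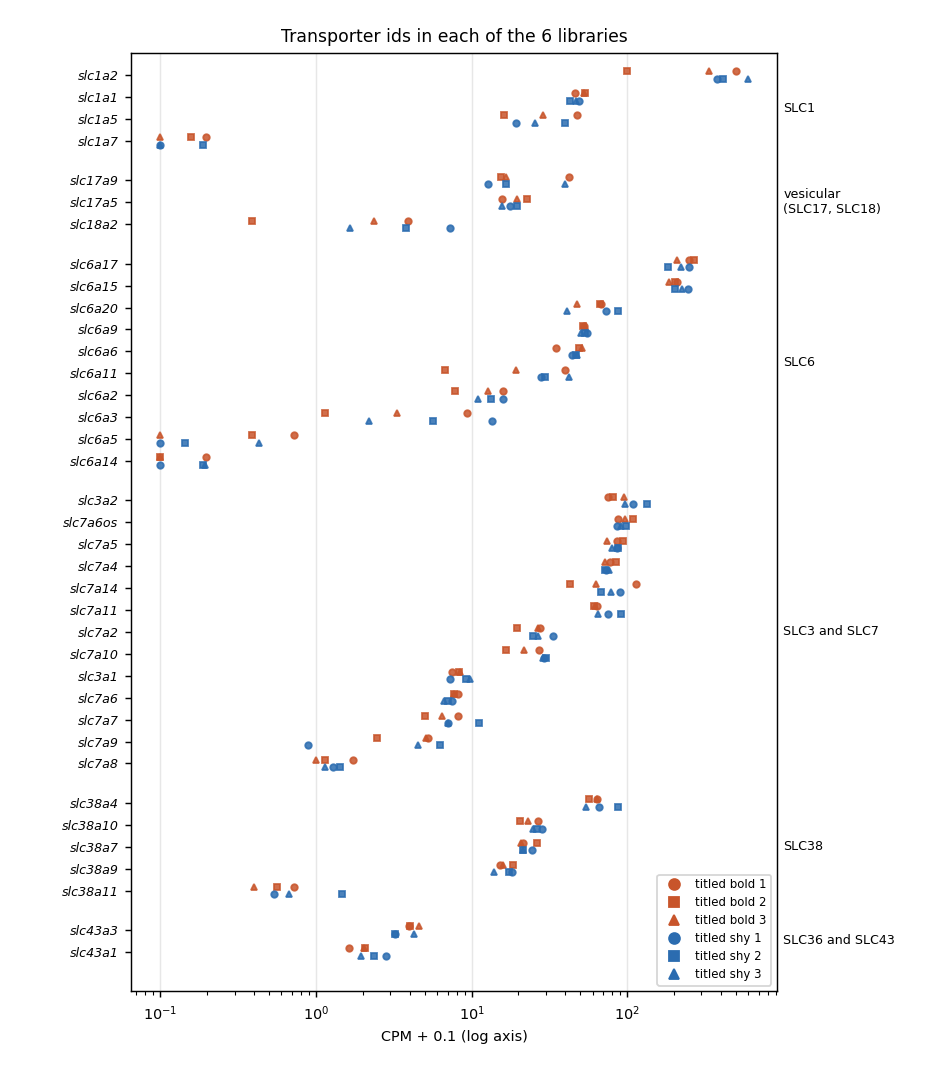
CPM plus 0.1 on a log axis for 37 member ids (rows, grouped by family), with libraries titled bold in orange above libraries titled shy in blue and the library number given by the marker shape. The colours overlap in most rows, and slc1a2, slc6a11, slc18a2 and slc6a3 spread widely with titled bold 2 as the lowest point.

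No transporter passed the test across all genes when titled bold was set against titled shy. By edgeR's quasi-likelihood test with Benjamini-Hochberg adjustment over 19755 genes, 0 of 35 members were called, as was true of all genes (0.0% called), and the lowest adjusted p of a member was 0.955. At an unadjusted p under 0.05 there were 3 members, slc3a2, slc7a10 and slc7a11, all lower in titled bold. They make up 8.57% of the tested members, where 3.49% of all tested genes had such a p, 1.75% with a lower value in titled bold and 1.74% with a higher one. No fit lacking 1 library kept all 3 members under this p, and leaving out titled shy 2 took all 3 above it. The gene slc7a10 stayed under it only without titled bold 1, and slc7a11 only without titled shy 3. The edgeR p of slc3a2 rose above 0.05 only without titled bold 1 (0.0571) or without titled shy 2 (0.0812). DESeq2 also called 0 members, while it called 0.0688% of all genes with an adjusted p. The groups did not overlap in 4 members (11.4%), where this held for 9.53% of all tested genes and for 5.0% with titled bold lower. These were the same 3 genes, lower in titled bold, and slc7a6, which was higher. The median log2 fold of titled bold over titled shy was -0.10 over the 35 members and -0.01 over all tested genes, with 13 members above 0 and 22 below. Without titled bold 1 the median over members was -0.20, and the groups did not overlap in 11 members (31.4%), as in 31.2% of all tested genes in that comparison of 2 libraries with 3.

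**Figure D2:**
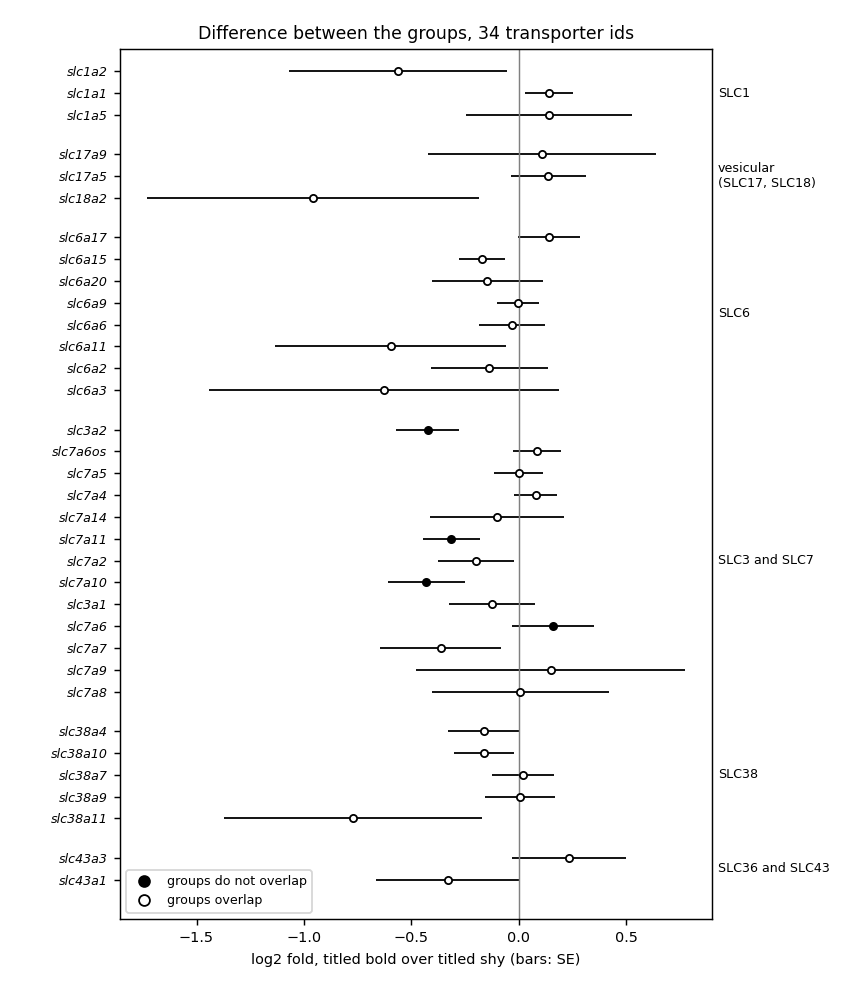
Log2 fold of titled bold over titled shy with its SE for 34 tested ids, by family, with filled points where the groups do not overlap and open points where they do. The 4 filled points are slc3a2, slc7a11, slc7a10 and slc7a6, and the longest bars belong to slc6a3 and slc18a2.

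The SLC3 and SLC7 ids held all members at an unadjusted p under 0.05. The group has 13 ids, all tested, with a median log2 fold of -0.10, 5 ids above 0 and 8 below. The heavy chain gene slc3a2 encodes the glycoprotein that carries most SLC7 light chains to the cell surface. It had 75.5, 81.0 and 95.2 CPM in titled bold, against 108, 133 and 96.2 CPM in titled shy. The highest library titled bold and the lowest library titled shy lay next to each other, and the groups did not overlap. The log2 fold was -0.42 ± 0.15, with an unadjusted p of 0.0183 and an edgeR adjusted p of 0.955.

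The gene slc7a11 encodes the light chain that exchanges extracellular cystine for glutamate and supplies cysteine for glutathione. Its CPM was 63.8, 60.9 and 61.6 in titled bold, against 75.4, 91.3 and 65.0 in titled shy. The libraries titled bold lay close together below all titled shy libraries, of which titled shy 2 was the highest. Scaled by library totals only, the groups overlapped. The log2 fold was -0.32 ± 0.13, with an unadjusted p of 0.0428 and an edgeR adjusted p of 0.955. Without titled shy 2 it was -0.18 ± 0.12. The gene slc7a10 encodes a light chain that moves glycine and D-serine, a co-agonist of NMDA receptors. It had 27.2, 16.5 and 21.6 CPM in titled bold and 29.2, 30.1 and 28.7 CPM in titled shy. Here the libraries titled shy lay close together and titled bold 2 was the lowest. The log2 fold was -0.43 ± 0.18, with an unadjusted p of 0.0415 and an edgeR adjusted p of 0.955, and without titled bold 2 it was -0.27 with an unadjusted p of 0.0936.

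Markers of other cell types were set beside these genes, and 0 of them were called by edgeR. At an unadjusted p under 0.05 there were 1 of 8 endothelial, 1 of 6 microglial and 1 of 9 astroglial rows, all lower in titled bold. Over all tested genes the share was 3.49%, 1.75% lower in titled bold and 1.74% higher. Among markers of meninges and fibroblasts 1 of 7 rows had such a p, higher in titled bold, with 6 log2 folds above 0 and 1 below. No neuronal or oligodendrocyte row had such a p. Of 11 tested neuronal rows, 7 log2 folds were above 0 and 4 below, with a median of 0.17. The groups did not overlap in 2 neuronal rows (18.2%, all tested genes 9.53%), both higher in titled bold. Oligodendrocyte rows had 4 log2 folds above 0 and 4 below. The 8 endothelial rows, all with reads in every library, summed to 241.6, 236.0 and 237.6 CPM in titled bold and 265.1, 277.5 and 245.6 CPM in titled shy, without overlap. The gap between these sums rested on the row cldn5, for a tight junction protein, with a log2 fold of -0.24 ± 0.10 and an unadjusted p of 0.0362. The other 7 rows summed to 162.3, 155.5 and 155.0 CPM in titled bold and 165.7, 177.9 and 158.0 CPM in titled shy, which overlapped. Row by row, 7 of the 8 endothelial log2 folds were below 0, with a median of -0.21. The groups did not overlap in 2 of these rows (25.0%, all tested genes 9.53%), both lower in titled bold. The 6 microglial rows summed to 98.4, 76.7 and 93.0 CPM in titled bold and 88.2, 145 and 72.4 CPM in titled shy. These sums overlapped between the groups and were highest in titled shy 2, where slc3a2 and slc7a11 were highest too. All 6 microglial log2 folds were below 0, with a median of -0.23, and the groups overlapped in every row. The 7 rows of meninges and fibroblasts summed to 499.0, 426.8 and 341.1 CPM in titled bold and 284.2, 516.3 and 240.4 CPM in titled shy. Those sums overlapped as well and were also highest in titled shy 2. The part of these cells in the values of slc3a2, slc7a10 and slc7a11 was not tested.

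The large neutral amino acid light chain gene slc7a5, named after its values were seen, had 85.2, 93.3 and 74.3 CPM in titled bold and 86.0, 87.3 and 79.7 CPM in titled shy. Its groups overlapped and its log2 fold was -0.0015 ± 0.11. The cationic and neutral exchanger gene slc7a6, also named after its values were seen, had 8.12, 7.61 and 7.58 CPM in titled bold, against 7.36, 6.94 and 6.58 CPM in titled shy. The groups did not overlap, with a log2 fold of 0.16 ± 0.19 and an unadjusted p of 0.424, but they overlapped when scaled by library totals only. In the RefSeq assembly ASM2471397v2, slc7a6 and slc7a6os lie next to each other with spans that do not overlap. The neighbour slc7a6os had 97.0 ± 10.6 CPM in titled bold and 91.4 ± 5.59 CPM in titled shy. The related light chain gene slc7a7 had 6.43 ± 1.55 CPM in titled bold and 8.29 ± 2.39 CPM in titled shy, a log2 fold of -0.36 ± 0.28. Without titled bold 2 this fold was -0.21 ± 0.28, and without titled shy 2 it was -0.10 ± 0.28.

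The heavy chain gene slc3a1 and its light chain partner slc7a9, which together take up cystine and cationic amino acids in kidney and gut, were also detected. In libraries titled bold slc3a1 had 7.94 ± 0.506 CPM and in titled shy 8.66 ± 1.32 CPM. Its partner slc7a9 varied more, with 5.16, 2.38 and 4.99 CPM in titled bold and 0.793, 6.14 and 4.40 CPM in titled shy. The lowest value was in titled shy 1 and the highest in titled shy 2, so the spread lay within a group. The cationic amino acid transporter gene slc7a2 had 24.5 ± 4.41 CPM in titled bold and 28.2 ± 4.50 CPM in titled shy. The related gene slc7a14 had 114, 42.5 and 62.9 CPM in titled bold, against 89.2, 67.7 and 78.9 CPM in titled shy. Both extremes were libraries titled bold. Its log2 fold was -0.10 ± 0.31, 0.17 ± 0.25 lacking titled bold 2 and -0.56 ± 0.18 lacking titled bold 1, where its edgeR adjusted p was 0.385. The related gene slc7a4 had 78.0 ± 6.04 CPM in titled bold and 73.9 ± 2.39 CPM in titled shy. The genes slc3a1, slc7a4, slc7a9 and slc7a14 were named after their values were seen.

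Glutamate uptake in the brain rests largely on astroglial slc1a2, and this gene varied widely between libraries. It had 503, 99.9 and 335 CPM in titled bold, against 380, 415 and 593 CPM in titled shy. The library titled bold 2 was far below the other 5, which overlapped between the groups. The log2 fold was -0.56 ± 0.51 over all libraries. Leaving out titled bold 2 gave -0.14 ± 0.24, leaving out titled shy 3 gave -0.34 ± 0.54, and leaving out titled bold 1 gave -1.08 ± 0.55. The neuronal glutamate transporter gene slc1a1 had 50.7 ± 4.11 CPM in titled bold and 46.0 ± 2.79 CPM in titled shy, with the highest value in titled bold 2. Its log2 fold was 0.14 ± 0.11. The neutral amino acid exchanger gene slc1a5, which carries glutamine, had 47.7, 16.1 and 28.7 CPM in titled bold and 19.3, 39.5 and 25.4 CPM in titled shy. Its lowest and highest libraries were both titled bold. The id slc1a7, whose protein serves retinal neurons, had at most 2 reads in any library. Both slc1a5 and slc1a7 were named after their values were seen.

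The astroglial GABA transporter gene slc6a11, named after its values were seen, had nearly the library profile of slc1a2. It had 40.0, 6.62 and 19.1 CPM in titled bold, against 27.8, 29.6 and 42.4 CPM in titled shy. The same library, titled bold 2, was lowest, and titled shy 3 and titled bold 1 were the highest in both genes. The log2 fold of slc6a11 was -0.60 ± 0.54. Leaving out titled bold 2 gave -0.17 ± 0.34, and leaving out titled bold 1 gave -1.35 ± 0.43, where its edgeR adjusted p was 0.385. Astroglial markers, 9 rows in all and each with reads in every library, had a summed level of 4554, 4530 and 5713 CPM in titled bold and 4507, 6136 and 5479 CPM in titled shy. In titled bold 2, 3 of the 9 rows had their lowest value (33.3%), near the 29.3% of all tested genes. These were ndrg2, with 99.7 CPM there and 150.6 to 194.6 CPM elsewhere, s100b, with 1337 CPM there and 1479 to 2689 CPM elsewhere, and aldh1l1, with 49.8 CPM there and 55.2 to 81.7 CPM elsewhere. The other 6 rows, which include the glutamine synthetase gene glula and gfap, were lowest in other libraries. Of the 9 rows, 7 had log2 folds below 0 and 2 did not overlap between the groups (22.2%, all tested genes 9.53%), 1 in each direction. The water channel gene aqp4 was lower in titled bold, at 0.518 ± 0.133 CPM, against 1.26 ± 0.297 CPM in titled shy, on 113 reads. The fatty acid binding protein gene fabp7a was higher in titled bold, at 328 ± 19.8 CPM, against 251 ± 67.7 CPM in titled shy, on 35941 reads. Neither was called by edgeR, with unadjusted p-values of 0.0213 and 0.0692. In titled bold 2 the summed neuronal and oligodendrocyte markers were the highest of all libraries, at 10270 and 4102 CPM, where the other libraries had at most 7887 and 2563 CPM. Single rows differed in this. Of 11 tested neuronal rows 5 were highest and 2 lowest in titled bold 2, and of 8 oligodendrocyte rows 5 were highest and 2 lowest there. In these tissue libraries fewer cells of a type and less RNA per cell cannot be told apart, and the part of cell composition in these values was not tested.

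**Figure D3:**
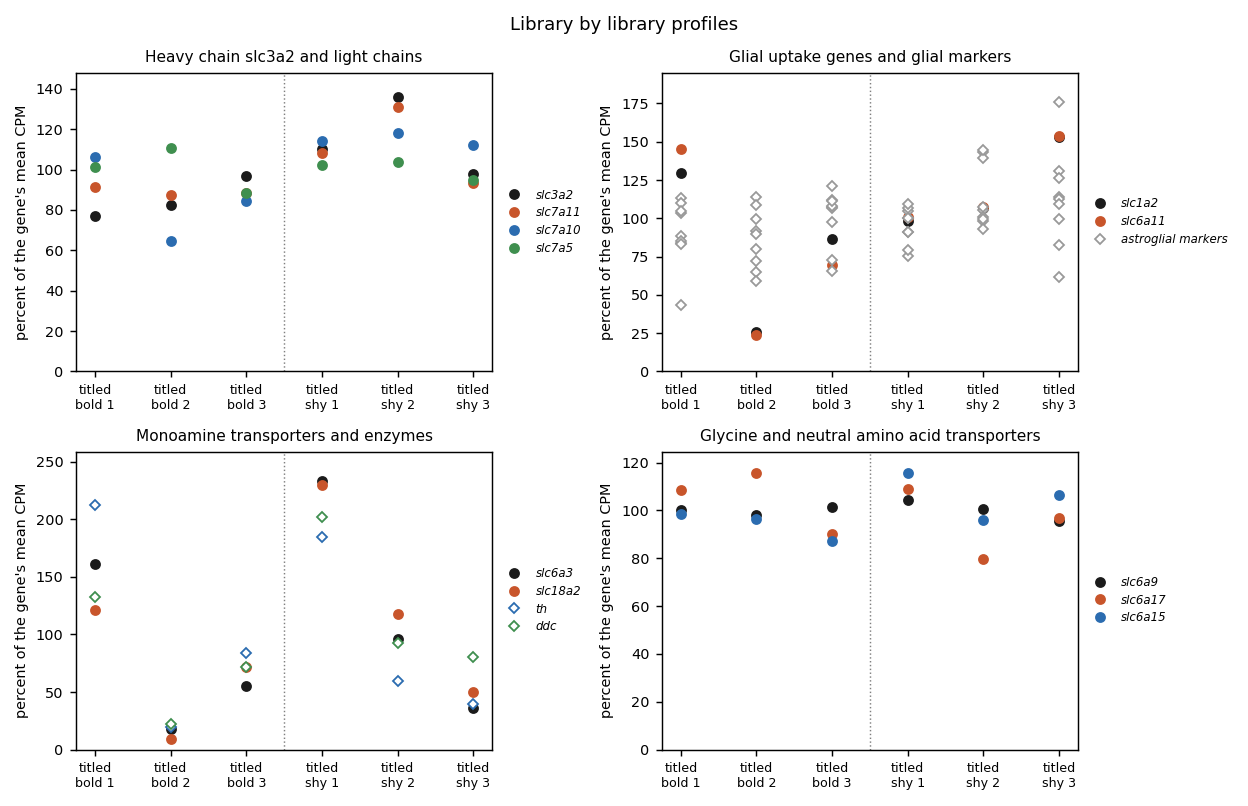
CPM of single genes in each library as a percentage of the gene's mean over 6 libraries, with libraries titled bold left of the dotted line and libraries titled shy right of it, members as filled circles and other genes as open diamonds, with the 9 astroglial markers in grey. In titled bold 2, slc1a2 and slc6a11 are the lowest points of their panel. Of the 9 markers, 3 have their lowest value there (33.3%, all tested genes 29.3%). The genes slc6a3, slc18a2, th and ddc are all lowest in titled bold 2.

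The glycine transporter ids were split between a steady glial gene and a neuronal gene near the floor. The glial glycine transporter gene slc6a9 had 53.0, 51.7 and 53.5 CPM in titled bold and 55.1, 53.1 and 50.4 CPM in titled shy. With a coefficient of variation (CV, the SD as a percentage of the mean) of 3.04% it was the steadiest tested member, and the median CV of 5442 genes within a 2-fold range of its CPM was 11.1%. The gene slc6a5, whose protein takes glycine back into the nerve endings of glycinergic neurons, had 13, 5 and 0 reads in titled bold and 0, 1 and 7 reads in titled shy. Its highest value was 0.621 CPM, and 3 libraries had fewer than 3 reads. Glycine receptor subunits were detected beside it, with glra2 at 75.2 ± 5.84 CPM and glrb at 115 ± 26.3 CPM over 6 libraries. Not all such subunits were well read, and the few reads of glra1 are given below among the receptor rows. The glycine cleavage gene gldc had between 124 and 149 CPM in titled bold and between 137 and 176 CPM in titled shy. The ids slc6a9 and slc6a5 were named after their values were seen.

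Monoamine carriers varied several-fold between libraries of the same group. The dopamine transporter gene slc6a3 had 9.27, 1.045 and 3.19 CPM in titled bold and 13.4, 5.52 and 2.08 CPM in titled shy. The vesicular monoamine transporter gene slc18a2 had 3.77, 0.290 and 2.24 CPM in titled bold, against 7.14, 3.67 and 1.56 CPM in titled shy. In both genes titled shy 1 was highest and titled bold 2 lowest, and the groups overlapped. The log2 folds were -0.63 ± 0.82 for slc6a3 and -0.96 ± 0.77 for slc18a2, and without titled shy 1 they were 0.26 ± 0.81 and -0.30 ± 0.84. The tyrosine hydroxylase gene th, for the first step of dopamine synthesis, had 11.3, 1.045 and 4.44 CPM in titled bold and 9.78, 3.18 and 2.08 CPM in titled shy. The decarboxylase gene ddc had 10.7, 1.80 and 5.78 CPM in titled bold and 16.4, 7.47 and 6.48 CPM in titled shy. All 4 genes had their lowest value in titled bold 2, and titled bold 1 and titled shy 1 held the upper ranks. The part of the share of monoamine neurons in these values was not tested. The noradrenaline transporter gene slc6a2, named after its values were seen, was steadier, with 15.9, 7.67 and 12.6 CPM in titled bold and 15.7, 13.2 and 10.9 CPM in titled shy. The noradrenaline synthesis gene dbh was not lowest in titled bold 2, where it had 14.3 CPM.

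Among the vesicular carriers, slc17a9, whose protein loads ATP into vesicles, had 42.3, 15.3 and 16.5 CPM in titled bold and 12.6, 16.5 and 40.0 CPM in titled shy. A single library of each group, titled bold 1 and titled shy 3, was far above the other 4. The log2 fold was 0.11 ± 0.53. The lysosomal sialic acid carrier gene slc17a5 was steady by comparison, at 19.2 ± 3.54 CPM in titled bold and 17.5 ± 1.89 CPM in titled shy. The vesicular transporters of glutamate, acetylcholine, GABA and glycine had no row under their own symbols, and they are described below under LOC numbers.

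Of the SLC6 carriers that are linked to no single transmitter, slc6a17 and slc6a15 were among the ids with the most reads. The gene slc6a17, whose protein carries neutral amino acids into synaptic vesicles, had 249, 267 and 208 CPM in titled bold and 251, 184 and 223 CPM in titled shy. The neuronal branched-chain amino acid carrier gene slc6a15 had 208, 204 and 184 CPM in titled bold, against 244, 203 and 224 CPM in titled shy. Groups overlapped in both genes, with log2 folds of 0.14 ± 0.14 and -0.17 ± 0.11. The taurine transporter gene slc6a6 had 44.8 ± 8.91 CPM in titled bold and 45.8 ± 1.82 CPM in titled shy. The proline carrier gene slc6a20 had 60.4 ± 10.99 CPM in titled bold and 66.9 ± 23.6 CPM in titled shy. The broad amino acid carrier id slc6a14 had at most 2 reads in any library. These last 3 were named after their values were seen.

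SLC38 carriers gave 5 ids, all tested, with log2 folds between -0.77 and 0.02. Further SLC38 loci are described below under LOC numbers. The sodium-coupled neutral amino acid transporter gene slc38a4 had 64.2, 57.0 and 64.1 CPM in titled bold and 65.6, 87.5 and 54.4 CPM in titled shy. Only titled shy 2 stood above the rest. The gene slc38a10 had 23.4 ± 3.15 CPM in titled bold and 26.2 ± 1.79 CPM in titled shy. The lysosomal genes slc38a7, for glutamine export, and slc38a9, for arginine sensing by the mTORC1 kinase, were named after their values were seen. In titled bold they had 22.7 ± 3.05 and 16.4 ± 1.66 CPM, and in titled shy 22.4 ± 1.64 and 16.4 ± 2.15 CPM. The id slc38a11 had a mean of 0.627 CPM, and its log2 fold of -0.77 ± 0.60 rested on 80 reads, 31 of them in titled shy 2. Without that library the fold was -0.12 ± 0.64. From SLC43, the large neutral amino acid carrier gene slc43a1 had 1.82 ± 0.249 CPM in titled bold and 2.28 ± 0.444 CPM in titled shy. The gene slc43a3, whose protein carries purine bases, had 4.08 ± 0.350 CPM in titled bold and 3.48 ± 0.595 CPM in titled shy.

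Over all 6 libraries, the median CV was 16.96% in the tested members and 16.95% in all tested genes. The highest CVs among members with a mean of at least 1 CPM were 82.7% for slc6a3, 76.1% for slc18a2 and 56.5% for slc17a9. For slc1a2 the CV was 43.5%, where the median of 777 tested genes within a 2-fold range of its CPM was 10.2%. For slc6a11 it was 48.3%, where the corresponding median was 12.9%. The steadiest ids after slc6a9 were slc7a4, slc7a6 and slc7a5, with CVs of 6.16%, 7.39% and 7.77%.

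**Figure D4:**
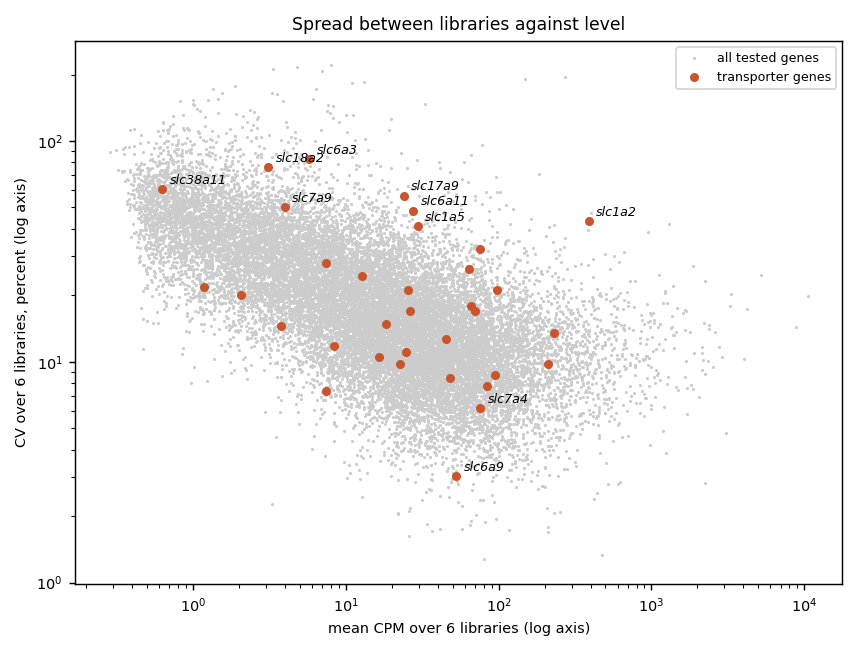
CV over 6 libraries in percent against mean CPM, both on log axes, for all tested genes in grey and 34 tested members in orange. The point of slc1a2 lies at 43.5%, where genes of its level had a median of 10.2%, and slc6a9 is the lowest orange point at 3.04%.

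Further transporters of the same families stood in the tables under LOC numbers, and 35 of them carry a symbol of the same pattern in the RefSeq annotation of assembly ASM2471397v2, which was used for names only. They were no members by the rule, and those described were chosen after their values were seen. The vesicular inhibitory transmitter transporter slc32a1 (LOC109635356) had 96.3, 72.0 and 94.7 CPM in titled bold and 108, 73.8 and 123 CPM in titled shy. The vesicular glutamate transporter slc17a6b (LOC109625187) had between 107 and 204 CPM, and slc17a7a and slc17a8 had 9 and 40 reads in all libraries together. The vesicular acetylcholine transporters slc18a3a and slc18a3b had 38 and 4 reads, beside 1 read of the acetylcholine synthesis gene chat. The cerebellar and neuronal glutamate transporter slc1a6 (LOC109647423) had 30.2, 9.29 and 22.7 CPM in titled bold, and between 22.4 and 29.4 CPM in titled shy. The GABA and taurine carrier slc6a13 (LOC109624612) and the creatine carrier slc6a8 (LOC109641235) also had their lowest value in titled bold 2, at 22.1 and 4.82 CPM. From SLC38, slc38a3b (LOC109638585) had 105.6 ± 17.98 CPM in titled bold and 108.2 ± 8.84 CPM in titled shy. For slc38a2 (LOC109646510) the values were 45.2 ± 14.4 and 44.5 ± 8.91 CPM. The SLC36 carrier slc36a1 (LOC109627568) had 33.3 ± 5.07 CPM in titled bold and 35.0 ± 1.91 CPM in titled shy. The 35 loci include slc6a4b (LOC109638171), named as a copy of the serotonin transporter id slc6a4 that the rule left out. Of the 35 loci, 21 were tested, slc6a4b among them, and 0 were called by edgeR. The only locus with an unadjusted p under 0.05 was slc1a9 (LOC109633949), with 2.92, 1.98 and 2.54 CPM in titled bold and 3.88, 4.33 and 3.88 CPM in titled shy. Its log2 fold was -0.70 ± 0.28. The groups did not overlap in 3 of the 21 tested loci (14.3%, all tested genes 9.53%), 2 lower in titled bold and 1 higher. The higher locus was slc38a6 (LOC109647769), with 2.45 ± 0.39 CPM in titled bold and 1.44 ± 0.41 CPM in titled shy. For slc38a6 the log2 fold was 0.77 ± 0.37, with an unadjusted edgeR p of 0.0664. The neutral amino acid exchanger slc1a4 (LOC109636536) had 64.6, 65.8 and 64.7 CPM in titled bold, below the 70.9, 73.3 and 69.7 CPM in titled shy, with a log2 fold of -0.13 ± 0.09.

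Teleost fish carry duplicated copies of many of these genes, and several LOC rows were second copies of a member. Beside slc1a2, with 49490 reads, the copy named slc1a2a had 2 reads, and beside slc7a14, with 9608 reads, slc7a14b had 12. It was the other way round for slc7a8, with 149 reads, where the copy slc7a8a (LOC109634826) had 2773. The copy slc6a11a did not have the profile of slc6a11, with 7.12, 6.45 and 9.07 CPM in titled bold and 3.92, 8.31 and 8.71 CPM in titled shy. Its log2 fold was 0.11 ± 0.32. For slc7a10 the copy slc7a10b had 12.2, 10.8 and 15.7 CPM in titled bold and 13.6, 11.6 and 20.9 CPM in titled shy, with groups that overlapped. How reads shared by close copies were assigned is not given in the sources used here, and values of copies carry that uncertainty.

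Genes that work with these transporters gave no call either. Among 34 tested enzymes of transmitter synthesis and breakdown there were 0 calls and 1 gene at an unadjusted p under 0.05, with a median log2 fold of -0.02. That gene was dbh, with 13.6 ± 1.90 CPM in titled bold and 9.23 ± 2.66 CPM in titled shy, a log2 fold of 0.56 ± 0.24. The next was mao, which encodes a monoamine oxidase, with a log2 fold of -0.27 ± 0.12 and groups that did not overlap. This lack of overlap held for 6 of the 34 enzymes (17.6%, all tested genes 9.53%), 4 lower in titled bold and 2 higher. Of 40 tested rows named for GABA, glycine and ionotropic glutamate receptors, 0 were called and 0 had an unadjusted p under 0.05, with a median of -0.09. These rows include grina and grinab, which encode no receptor subunit. The smallest p-values were those of gabra2, with a log2 fold of -1.27 ± 0.59, and glra1, with -0.97 ± 0.49, on 216 and 116 reads. Receptor rows were lowest in titled bold 2 in 17 of 40 cases (42.5%), beside 29.3% of all tested genes. The gene grin1a, for the obligatory NMDA receptor subunit, had 394, 170 and 287 CPM in titled bold and 369, 299 and 391 CPM in titled shy.

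The amino acid response genes, a list for the response to amino acid shortage and related stress that includes ATF4 itself, gave no call. ATF4 is a known activator of slc7a11 and slc3a2 in mammals, and its part in their values here was not tested. Of 22 tested rows 0 were called and 0 had an unadjusted p under 0.05, with a median log2 fold of -0.05. The groups did not overlap in 2 of them (9.09%, all tested genes 9.53%), 1 lower in titled bold and 1 higher. The stress gene nupr1b had 5.44 ± 0.849 CPM in titled bold and 8.43 ± 2.89 CPM in titled shy, a log2 fold of -0.63 ± 0.29. Of the ATF4 copies, atf4a had a log2 fold of -0.11 ± 0.12, and atf4b had 208 ± 6.17 CPM in titled bold and 182 ± 1.73 CPM in titled shy, a log2 fold of 0.19 ± 0.09 with groups that did not overlap. The sodium-potassium pump sets the gradient that SLC1, SLC6 and SLC38 carriers use. Of its 9 subunit rows 0 were called, and the row atp1a3a had an unadjusted p under 0.05, with 456 ± 44.1 CPM in titled bold and 552 ± 57.8 CPM in titled shy and a log2 fold of -0.28 ± 0.12. The row with the next smallest p, atp1b1b, had 124, 285 and 149 CPM in titled bold and 137, 137 and 121 CPM in titled shy, with titled bold 2 far above the rest.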

How the data were processed

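Hindbrain libraries came from a stranded mRNA kit and were read as paired ends of 100 bp (labels' protocols). The authors deposited raw counts, 1 table per library with 24395 gene rows. Trimmomatic 0.30, TopHat2 2.0.11 and HTSeq 0.11.1 are named in the submitters' processing notes. For genome build, annotation, strand setting and counting mode, the entry is "not given in the sources used here".

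The members and gene lists were chosen with earlier results of these data known. Libraries were grouped by title, and none was left out. After edgeR's filterByExpr, 19755 genes were scaled by TMM and fitted with glmQLFit (robust), and glmQLFTest gave two-sided p-values, adjusted by Benjamini-Hochberg over all tested genes with a threshold of 0.05. An SE is the log2 fold's size over the square root of F. Its median was 0.199, and the common biological CV was 22.9%. Libraries of a group differed beyond sampling noise, at a chi-square per gene of 17.1 or more.

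The text names by rule the 10 members with the smallest unadjusted p, the 2 with the highest mean CPM in each family group, the 3 with the highest CV among means of at least 1 CPM, duplicated copies among the members (none) and members with no read (none). From the lists of enzymes, receptor rows, amino acid response genes and sodium-potassium pump subunits it names the 2 genes with the smallest p. This naming was planned for the cell type markers too but was not carried through, and the markers named were picked after their values were seen. A member that the rule names is not reported here, though counts over the members include it. Genes outside the rule were chosen after their values were seen. LOC numbers took symbols from RefSeq assembly ASM2471397v2 where it has one (5666 of 14730), and 25 of the 38 member symbols occur there. Scaling by coding length was planned but not run, since no transcript or protein sequence was used here.

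Alternatives were RLE and library-total scaling, DESeq2, limma-voom, other filters, estimation without robustness, a replicate block and leaving out each library. The test was tried on simulated data first. The software was edgeR 4.0.16, DESeq2 1.42.0 and limma 3.58.1 under R 4.3.3, with Python 3.11.15.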

Additional observations from a re-analysis of the deposited data

How the results depend on the processing

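No alternative called a member, and the lowest adjusted p was 0.374, for slc7a10 without titled bold 1 (edgeR). DESeq2 called 12 genes in all, with 0 members among them. With library totals only, the groups did not overlap in 2 members (5.71%, where 9.29% of all genes did), and with TMM in 4. The members that lost their separation were slc7a11 and slc7a6. Leaving out 1 library at a time gave 0 to 3 members at an unadjusted p under 0.05. The count was 0 lacking titled shy 2 (all genes 3.11%) and 2 lacking titled shy 3 (5.71%, all genes 2.69%). It was 1 lacking titled bold 2, titled bold 3 or titled shy 1 (2.86% each, all genes 2.69% to 2.8%). The 3 members lacking titled bold 1 (8.57%, all genes 12.0%) were slc7a10, slc6a11 and slc7a14. The groups did not overlap in 5 to 11 members, with 11 lacking titled bold 1 (31.4%, all genes 31.2%), 8 lacking titled shy 3 (22.9%, all genes 17.7%) and 5 in each of the others (14.3%, all genes 16.5% to 19.6%). The median log2 fold over members lay between -0.199 and -0.056. Of 19 members named by rule, 16 kept their direction in every alternative run, and 3 turned with 1 library left out, for which the cause was not tested. Their log2 folds then ranged from -0.509 to 0.782 for slc17a9, from -1.7 to 0.256 for slc6a3 and from -0.293 to 0.042 for slc38a4. Of the 15 other tested members outside the rule, 11 also turned with 1 library left out. For all genes at unadjusted p under 0.05, the count was 2393 lacking titled bold 1, against 690 with all libraries. Same-numbered libraries had correlations of 0.316, 0.136 and 0.08 in their deviations from group means. Each titled bold library correlated best with the titled shy library of its number, while titled shy 3 correlated best with titled bold 2, at 0.084. The main fit did not take the numbers as pairs, since the labels state no covariate. Whether they are pairs is not known. With the replicate block, 0 genes were called, and the median log2 fold over members was -0.096. In that fit 3 members (8.57%) and 1160 genes in all (5.87%) had an unadjusted p under 0.05. Scaling by coding length was not run.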
